A study of Mus musculus with 4 samples.

Results

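Cortical layer 4 marker spots were chosen in coronal sections of mouse brain by 3 genes, Rorb, Scnn1a and Rspo1. In spots with at least 500 counts, each gene was scaled to counts per 10000, log-transformed and turned into a z-score over all kept spots, and a spot was a member where the mean of the 3 z-scores was at least 1. This rule gave 915 members among 12601 kept spots (7.26%). The measured levels of the 3 markers chose the members, so these levels are given below as a description and support nothing. The sections came from 4 mice, 2 of wild-type genotype and 2 that were Celsr3 heterozygotes, and the labels give no treatment and no age. The tissue was formalin-fixed and embedded in paraffin, and the Visium CytAssist assay counts gene probes on a grid of spots, each of which can hold several cells of different types.

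The spot names end in a number from 1 to 4, which defines 4 barcode sets, and the labels link 0 of these endings to an animal. Wild-type and heterozygous mice were therefore not compared. Values are given for each set, with 95% intervals that cover counting error only, and no test was run. The kept spots held between 90752475 and 174761560 counts per set, with medians of 26444.5 to 52481 counts per spot. The members held 13608585, 6191613, 14524699 and 9379422 counts in sets 1 to 4. Levels are counts per 1000000 counts (CPM) summed over the spots of an area in a set, and because probes differ in efficiency they are not compared between genes. In such sums, fewer cells of a type and less RNA per cell cannot be told apart. The 4 sets hold 4744 different spot barcodes, of which 1613 occur in all of them, and 34 of the 880 member barcodes were members in more than 1 set.

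Layer 4 is the main layer of the sensory cortex to receive input from the thalamus, and it is packed with small excitatory neurons. Rorb encodes a nuclear receptor and transcription factor of these neurons that is needed for their grouping into barrels. Scnn1a encodes a subunit of the epithelial sodium channel and drives a widely used layer 4 Cre line. Rspo1 encodes R-spondin 1, a secreted enhancer of Wnt signalling. Rorb and Scnn1a are also transcribed outside the cortex, Rorb for example in thalamic nuclei.

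The label held for a part of the members. A cortical score, the mean z-score of 3 genes of cortical excitatory neurons that include Slc17a7 (a vesicular glutamate transporter) and Neurod6 (a transcription factor), separated the members into 571 spots with a score of at least 0 (62.4%) and 344 spots with a score below 0 (37.6%). Only 39 members lay within 0.25 of 0. The 344 spots carried little cortical signal. A list of 8 other genes of cortical excitatory neurons, which the score did not use, summed to 395, 969.9, 558 and 925 CPM in the 344 spots of sets 1 to 4, against 5623, 6756, 5267 and 8788 CPM in the 571 spots. Slc17a7, a gene of the score itself, whose level the split fixes, was at 31.3, 28.8, 66.6 and 64.3 CPM in sets 1 to 4, against 2292, 2089, 2089.7 and 2075 CPM in the 571 spots. The whole set is therefore called layer 4 marker spots here, the 571 spots cortical members and the 344 spots noncortical members.

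**Figure D1:**
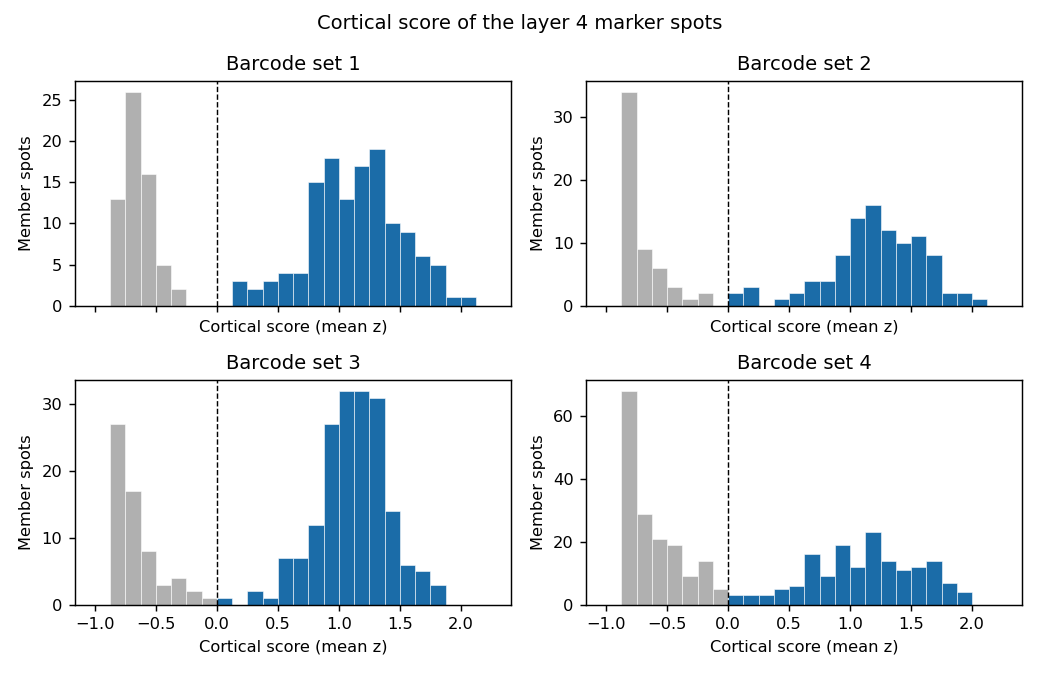
Number of layer 4 marker spots (vertical axis) by cortical score, the mean z-score of 3 genes of cortical excitatory neurons (horizontal axis), in each of the 4 barcode sets; blue bars are cortical members with a score of at least 0 and grey bars noncortical members. Each set shows a group below 0 and a group centred near 1, with few spots between, and set 4 has the largest number of grey spots, 165 of 326.

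Sets 1 to 4 held 192, 155, 242 and 326 members among 3055, 2808, 3444 and 3294 kept spots. These shares were 6.28% (5.45 to 7.20, by the exact Clopper-Pearson method), 5.52% (4.70 to 6.43), 7.03% (6.20 to 7.93) and 9.90% (8.90 to 10.97). Set 4 lay above the intervals of the other sets. The cortical members alone gave 130, 100, 180 and 161 spots, or 4.26% (3.57 to 5.03), 3.56% (2.91 to 4.31), 5.23% (4.51 to 6.02) and 4.89% (4.18 to 5.68). In this count set 4 no longer stood apart, and its interval overlapped those of the other 3 sets. The noncortical members numbered 62, 55, 62 and 165 spots, so that 50.6% of the members of set 4 were noncortical, against 25.6% to 35.5% in the other sets. How much of each section is cortex was not tested.

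Not all members carried all 3 markers. Of the 571 cortical members, 368 had at least 1 count of each marker, 195 of 2 markers and 8 of a single marker, and 175 had a z-score of at least 1 for all 3. Of the 344 noncortical members, 69 had counts of all 3 markers and 12 had 3 z-scores of at least 1. In the cortical members Rorb was at 221, 95.3, 183 and 86.5 CPM in sets 1 to 4, Scnn1a at 32.7, 29.6, 36.7 and 40.2 CPM, and Rspo1 at 59.1, 129, 57.6 and 155 CPM. Rorb was high in sets 1 and 3 and Rspo1 in sets 2 and 4, and so they were in the cortical spots outside the members, where Rorb was at 33.8, 16.4, 29.5 and 12.5 CPM and Rspo1 at 7.38, 11.6, 9.11 and 17.1 CPM. Because z-scores were taken over all sets together, Rorb was the highest of the 3 z-scores in 85.4% of the cortical members of set 1 and in 8.07% of those of set 4. Around the threshold, 101 spots had a mean z-score of 1 to 1.1, with Rorb at 72.8, Scnn1a at 24.1 and Rspo1 at 49.1 CPM over all sets. The 114 spots from 0.9 to 1 had 66.1, 16.9 and 60.6 CPM.

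**Figure D2:**
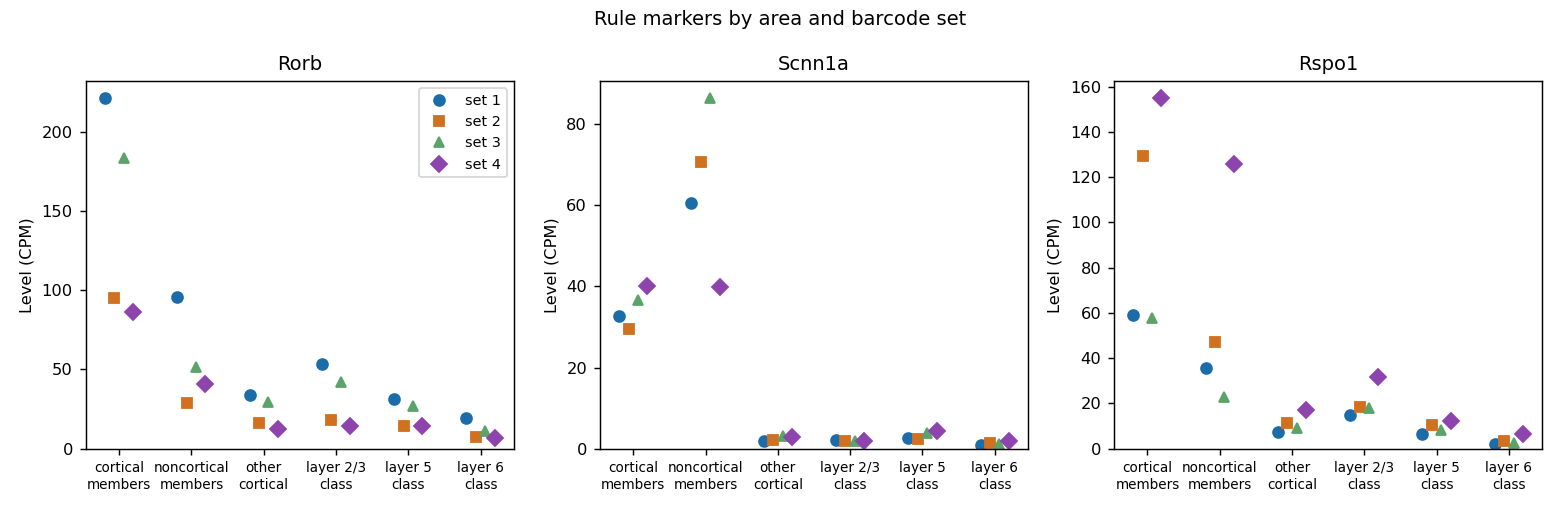
Levels in CPM (vertical axes) of the rule markers Rorb, Scnn1a and Rspo1 in cortical members, noncortical members, other cortical spots and the layer 2/3, layer 5 and layer 6 classes (horizontal axis), 1 point per barcode set. These levels chose the members; Rorb in cortical members is at 221 and 183 CPM in sets 1 and 3 and Rspo1 at 129 and 155 CPM in sets 2 and 4, while Scnn1a is higher in noncortical than in cortical members in sets 1 to 3.

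Leaving a marker out of the rule gives a measure of it that the rule did not use. Cortical spots chosen by Scnn1a and Rspo1 alone had Rorb at 231, 82.2, 166 and 65.6 CPM, which was 5.35 (exact conditional binomial interval 4.997 to 5.72), 4.74 (4.19 to 5.34), 4.06 (3.81 to 4.33) and 4.73 (4.10 to 5.45) times the level in cortical spots not so chosen. Chosen by Rorb and Rspo1, spots had Scnn1a at 8.63 (6.998 to 10.7), 7.42 (5.67 to 9.72), 5.19 (4.43 to 6.08) and 5.93 (4.66 to 7.57) times that level. Chosen by Rorb and Scnn1a, they had Rspo1 at 6.09 (5.34 to 6.96), 7.54 (6.68 to 8.51), 4.84 (4.32 to 5.42) and 4.87 (4.35 to 5.46) times. Each marker was thus higher where the other 2 were high, in each set and beyond counting error. Without the limit to cortical spots on the chosen side, the ratios to the same cortical spots not so chosen were smaller. They ranged from 2.57 to 3.50 for Rorb, 3.28 to 6.40 for Scnn1a and 3.58 to 5.66 for Rspo1.

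The noncortical members were described by marker lists of other brain areas, of which the ependymal, hypothalamic and choroid plexus lists were chosen after values were seen. Each spot was given the list with the highest mean z-score of at least 1. The largest group, 127 spots (26, 25, 31 and 45 in sets 1 to 4), was highest for genes of ciliated ependymal cells, which line the ventricles. These spots had Scnn1a at 137, 110, 117 and 129 CPM, but Rorb at 18.2 to 40.2 CPM. Of all 269 spots that the ependymal list marked in the sections, 129 (48.0%) were layer 4 marker spots. Ccdc153, a gene of motile cilia, was at 387, 178, 445 and 160 CPM in the noncortical members as a whole, and Foxj1, the master regulator of motile cilia, at 109, 97.3, 102 and 88.1 CPM. In the cortical members Foxj1 was at 0.989 to 6.79 CPM.

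A further 76 noncortical members (2, 14, 12 and 48 spots) were highest for the hypothalamic list. In the 48 spots of set 4, Rorb was at 29.4 CPM and Scnn1a at 21.7 CPM, so that Rspo1, with 240 counts in these spots, led the score. The peptide hormone gene Oxt was at 1019.6, 1563, 642 and 2423 CPM in the noncortical members, and at 0.845 to 1.70 CPM in the cortical members. The thalamic list marked 61 spots, 23 in set 1, 34 in set 4 and 2 in each of the other sets. Rorb was at 152 CPM in those of set 1 and 74.2 CPM in those of set 4, whereas Scnn1a was at 3.25 and 4.47 CPM. Rspo1 was at 52.0 and 143 CPM in the same spots. Rorb was the highest of the 3 z-scores in 87.0% of those of set 1 and 17.6% of those of set 4, and Rspo1 in 13.0% and 73.5%. In the noncortical members pooled over all lists, each of the 6 thalamic list genes was at least 1.5-fold higher in each set than in other cortical spots. Most of these pooled spots were highest for other lists, so the calls are not of thalamic spots alone. In this comparison 14.6% of 10538 genes were higher (1538) and 7.11% lower (749). TMM scaling gave 727 higher and 1676 lower. Of the remaining noncortical members, 18 were highest for oligodendrocyte genes, 14 for meningeal, 12 for choroid plexus, 9 for astrocyte, 2 for striatal and 1 for hippocampal genes, and 24 for none.

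A comparison of all 915 members with other cortical spots thus included tissue of other areas. Other cortical spots were the 3521 non-members with a cortical score of at least 0.5, and a gene was called where its ratio was at least 1.5, or at most its inverse, in each of the 4 sets. Genes were tested where their level averaged 10 CPM or more over both areas. All genes other than the markers were counted in the same spots that the rule chose, so the calls describe the members and carry no test. Over all members, 265 of 10045 genes (2.64%) were called higher and 163 (1.62%) lower. The genes with the highest ratios were those of cilia and of the hypothalamus, with Oxt, Ccdc153, Tmem212 and Gal in front. With TMM scaling the split was 194 higher and 226 lower, and with RLE scaling 188 and 233. In the cortical members, 200 of 9829 genes (2.03%) were called higher and 264 (2.69%) lower. The cortical members shared 85 of the higher and 134 of the lower genes with the comparison of all members, which is 32.1% and 82.2% of the calls over all members and 42.5% and 50.8% of those in the cortical members. The rest of the description is of the cortical members.

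Genes were ranked by their least extreme ratio over the 4 sets, and Cartpt, which encodes the neuropeptide CART, came first. It was at 162, 198, 163 and 168 CPM in the cortical members of sets 1 to 4 and at 17.3, 29.1, 22.3 and 30.1 CPM in other cortical spots, ratios of 9.34 (8.60 to 10.2), 6.79 (6.23 to 7.39), 7.31 (6.82 to 7.84) and 5.58 (5.07 to 6.14). Its lowest value in the members lay far above its highest value outside them. Kcnab3, a cytoplasmic beta subunit of voltage-gated potassium channels, was at 259, 221, 245 and 186 CPM against 58.8, 40.6, 66.7 and 38.7 CPM. Whrn, the scaffold protein whirlin, was at 105, 95.5, 75.2 and 92.2 CPM against 24.5, 25.2, 23.5 and 23.3 CPM. For both genes the 4 member values and the 4 outside values did not overlap. The ranking picked Cartpt, Kcnab3 and Whrn for high ratios in each set, so such gaps follow largely from the choice and describe these genes only. The other genes among the first 12 were Tspan11, Adam33, Il12a, Pld5, Kcnh5, Tafa2, Ddit4l, Tmem145 and Il4ra. Adam33, a membrane metalloprotease, was at 45.8, 70.4, 46.6 and 63.5 CPM against 6.08, 7.95, 9.04 and 10.3 CPM, with ratios above those of Cartpt in sets 2 and 4 (8.86 and 6.17). The receptor gene Il4ra and the cytokine subunit gene Il12a were low, at 18.2 to 22.4 CPM and 20.8 to 22.4 CPM, and steady over the sets.

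The genes at the other end included markers of the deep layers, but not all of them were such markers. Ccn2, a matrix protein gene and a marker of layer 6b, was at 4.72, 10.8, 6.22 and 12.6 CPM in the cortical members and 90.2, 103, 67.7 and 123 CPM in other cortical spots, with ratios of 0.0524 (0.0378 to 0.0706), 0.104 (0.0775 to 0.137), 0.0918 (0.0724 to 0.115) and 0.103 (0.0795 to 0.131). Nxph3, which encodes the alpha-neurexin ligand neurexophilin 3, was at 7.80, 8.24, 14.3 and 14.3 CPM against 127, 89.9, 133 and 108 CPM. Both were lower in each set by more than counting error, but the ranking picked them for low ratios in each set, so this supports nothing further. The remaining 10 of the 12 lowest ratios were those of Sulf1, Thsd7b, Syt10, Bmp3, Crym, Col6a1, Igsf21, Atp2b4, Tac1 and Sdk2. Atp2b4, a plasma membrane calcium pump, was at 16.3 to 23.0 CPM against 115 to 136 CPM, and Tac1, the substance P precursor gene, at 3.08 to 4.90 CPM against 18.9 to 29.4 CPM.

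**Figure D3:**
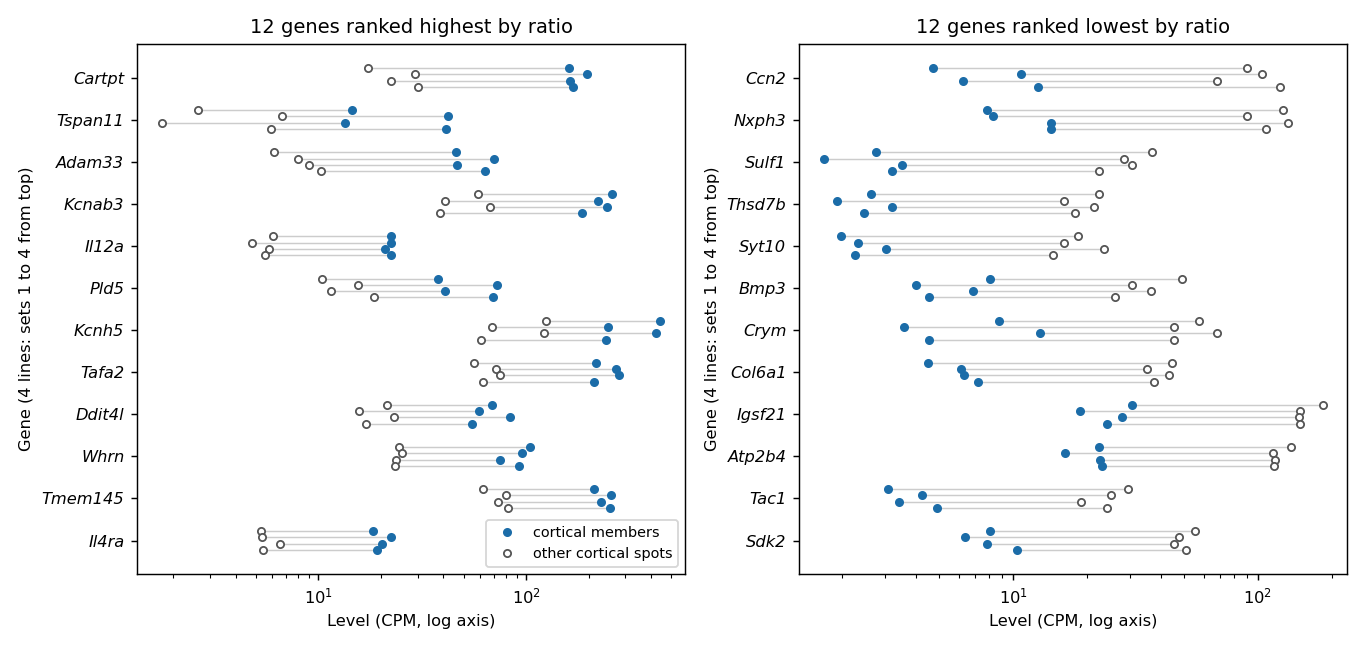
Levels (horizontal log axis, CPM) of the 12 genes with the highest (left) and the 12 with the lowest ratio (right) of cortical members (blue points) to other cortical spots (open circles), 1 line per barcode set, sets 1 to 4 from top to bottom. For Cartpt the blue points lie between 162 and 198 CPM and the open circles between 17.3 and 30.1 CPM, and for Ccn2 the order is turned.

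Of 14 other layer 4 genes listed beside the rule markers, 13 were in the table and 9 passed the level of 10 CPM. Of these 9, 8 were called higher and 0 lower, against 2.03% of all genes called higher. The median log2 ratio of the 9 genes was 1.81, 1.60, 1.57 and 1.39 in sets 1 to 4, and that of all tested genes was -0.02, -0.01, -0.01 and 0.00. Cux1 and Cux2, homeobox factors of the upper layers, were at 240, 313, 210 and 251 CPM and at 102, 168, 84.9 and 183 CPM in the cortical members, against 78.2 to 103 CPM and 36.7 to 91.0 CPM outside. The values of Cux1 did not overlap, whereas those of Cux2 did. Kcnh5, an ether-a-go-go potassium channel, was at 444, 248, 422 and 244 CPM against 125, 68.3, 122 and 60.5 CPM. Unc5d, a netrin receptor, Pcdh20, a protocadherin, Btbd3, which orients the dendrites of layer 4 neurons, and Thsd7a were also called higher, together with Whrn. Hsd11b1 was at 30.4 to 34.7 CPM against 18.6 to 25.7 CPM and missed the call with ratios of 1.35 to 1.63. Endou, Batf3, Ctxn3 and Il1rapl2 fell below the level filter. Of these Endou was at 10.4, 2.54, 30.7 and 17.7 CPM in the cortical members and 1.67 to 5.74 CPM outside, and the other genes rested on 3 to 77 counts per set.

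The layer classes gave the position of the cortical members between their neighbours. The classes were non-members with a cortical score of at least 0.5 and a mean z-score of at least 1 for Otof, Rasgrf2 and Lamp5 (layer 2/3, 579 spots), Fezf2 and Deptor (layer 5, 940 spots) or Syt6, Hs3st4 and Rprm (layer 6, 896 spots). Each class is also defined by measured values, and its own genes are no results. The classes overlap, with 225 spots in both the layer 5 and the layer 6 class and 7 in both the layer 2/3 and the layer 5 class, so the 3 comparisons are not separate. Of the cortical members, 91 (15.9%) also passed the layer 2/3 score, 72 (12.6%) the layer 5 score and 3 (0.525%) the layer 6 score. The cortical members had 220 genes (2.25% of 9796) called higher and 267 (2.73%) lower than the layer 2/3 class. Against the layer 5 class the numbers were 241 (2.46% of 9793) and 256 (2.61%), and against the layer 6 class 460 (4.69% of 9808) and 481 (4.90%).

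Against the layer 2/3 class, Whrn had ratios of 7.25, 6.66, 6.17 and 7.46 in sets 1 to 4, being at 12.2 to 14.5 CPM in that class. Wnt2b, Cnih3 (an auxiliary subunit of AMPA receptors), Plcxd2, Cartpt and Kcnab3 completed the 6 highest ratios. Plcxd2 was at 422, 288, 340 and 264 CPM in the cortical members and 45.7 to 94.5 CPM in the layer 2/3 class. Cux2 was not called, at 84.9 to 183 CPM in the cortical members and 127 to 246 CPM in the layer 2/3 class, with ratios of 0.668 to 0.773. Of the 9 tested genes of the other layer 4 list, 4 were called higher than in the layer 2/3 class (Whrn, Hsd11b1, Kcnh5 and Thsd7a) and 0 lower. Of all genes, 2.25% were called higher and 2.73% lower. Cux1, Cux2, Unc5d, Pcdh20 and Btbd3 were not called. The calcium-binding protein gene Calb1 was called lower, at 346 to 441 CPM against 731 to 877 CPM. Atp2b4, Grp (gastrin-releasing peptide), Ccbe1, Trpc6 and Ankrd63 were among the 6 lowest.

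Against the layer 5 class, Cux2 was 6.54, 5.25, 5.45 and 5.64 times as high in sets 1 to 4, and Cux1 between 4.18 and 5.25 times. Adam33, Cartpt, Tspan11, Ddit4l and Tmem215 stood with Cux2 at the top. Bcl11b, a transcription factor of subcortically projecting neurons, was at 7.03 to 11.9 CPM against 28.6 to 41.5 CPM. Crym and Kcng1 were among the 6 lowest, with Nxph3, Ccn2, Sdk2 and Igsf21. Against the layer 6 class, Adam33 had ratios of 43.1, 79.9, 47.1 and 21.0, since it was at only 0.881 to 3.02 CPM there. Tle4, a corepressor of layer 6 neurons, was at 22.1, 15.6, 25.03 and 17.2 CPM in the cortical members and 151, 86.1, 131 and 73.5 CPM in the layer 6 class, with no overlap. Chrna5, the nicotinic receptor subunit alpha5, was at 0.566 to 1.76 CPM against 17.5 to 33.0 CPM.

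**Figure D4:**
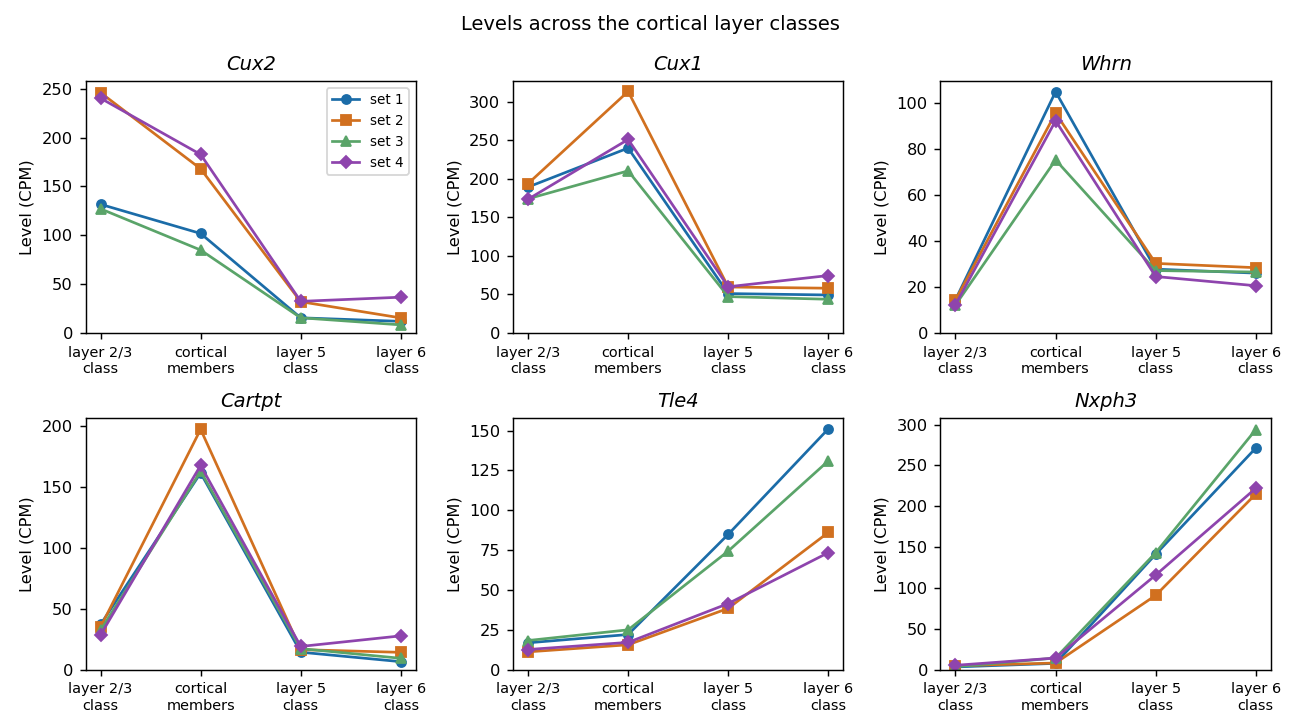
Levels in CPM (vertical axes) of Cux2, Cux1, Whrn, Cartpt, Tle4 and Nxph3 in the layer 2/3 class, the cortical members, the layer 5 class and the layer 6 class (horizontal axes), 1 line per barcode set. Cux2 steps down from the layer 2/3 class over the cortical members to the deep classes, Whrn and Cartpt peak in the cortical members in each set, and Tle4 and Nxph3 are highest in the layer 6 class.

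Higher than all 3 classes in each set were 60 of 9614 genes (0.624%), and 46 (0.478%) were lower than all 3. Cartpt, Pld5, Kcnab3, Whrn, Tmem200b, Tspan11, Shisa6, Grm2, Il4ra, Zmat4, Coch and Tafa2 led the first group. Shisa6, an auxiliary protein of AMPA receptors, was at 42.6, 114, 41.9 and 107 CPM in the cortical members, and at 15.4 to 28.1 CPM, 17.2 to 32.3 CPM and 11.3 to 32.5 CPM in the layer 2/3, 5 and 6 classes. The silent potassium channel subunit gene Kcns1 was at 80.2, 159, 70.6 and 138 CPM, against at most 51.4 CPM in any class. Atp2b4, Bmp3, Grp, Trp53i11, Igfbp4 and Ramp3 led the lower group. Grp was at 1.87 to 4.86 CPM in the cortical members and at 15.8 to 19.8 CPM in other cortical spots.

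Among 20 tested transcription factors of cortical areas and layers, 5 were called higher than in other cortical spots (Pou3f2, Rora, Foxp1, Cux1 and Cux2) and 5 lower (Sox5, Zfpm2, Bcl11b, Tle4 and Fezf2), where 2.03% and 2.69% of all genes were. Rora, a nuclear receptor of the same family as Rorb, was at 249, 166, 248 and 159 CPM against 98.8, 68.0, 109 and 69.0 CPM, ratios of 2.52 (2.40 to 2.65), 2.44 (2.26 to 2.64), 2.27 (2.18 to 2.37) and 2.30 (2.12 to 2.50). Rora was higher than in the layer 2/3 class as well, 1.87 to 2.26 times. Fezf2, which specifies subcerebral projection neurons, was at 25.05, 11.4, 30.1 and 25.6 CPM against 66.2, 43.8, 69.2 and 59.3 CPM. The layer 6 list had 6 of 7 tested genes lower and 0 higher, and the layer 5 list 3 of 6 lower and 0 higher, against 2.69% of all genes lower.

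The transmitter machinery differed in single genes. Slc17a6, the vesicular glutamate transporter typical of thalamic neurons, was at 40.2, 26.0, 44.8 and 29.6 CPM in the cortical members and 14.8, 8.49, 16.6 and 13.5 CPM in other cortical spots, with ratios of 2.71 (2.39 to 3.08), 3.06 (2.48 to 3.76), 2.70 (2.43 to 2.99) and 2.19 (1.81 to 2.65). The defining thalamic factor gene Tcf7l2 was at 4.44 to 6.14 CPM in the cortical members and 4.71 to 6.23 CPM outside. The 6 thalamic list genes summed to 57.7 to 77.0 CPM in the cortical members and 39.6 to 45.4 CPM outside, and Slc17a6 was the 1 gene of the list that passed the level filter. Pvalb, the marker of fast-spiking interneurons, was at 432, 538, 463 and 437 CPM against 246, 258, 277 and 284 CPM. It was the 1 gene of 13 tested interneuron genes called higher, where 2.03% of all genes were. Tac1, a gene of the same list, was called lower, where 2.69% of all genes were. Sst, the somatostatin gene, was at 485, 559, 251 and 605 CPM against 673, 1019.7, 403 and 1078 CPM and missed the call for lower.

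Receptor genes are set beside all genes, of which 2.03% were called higher and 2.69% lower. Of 6 listed metabotropic glutamate receptor genes, Grm2 and Grm7 were called higher and Grm8 was called lower. Grm2, a presynaptic receptor, was at 167, 112, 138 and 146 CPM against 51.3, 40.1, 49.6 and 46.0 CPM, a ratio of 2.78 to 3.26. Grm8 was at 9.01, 9.09, 7.33 and 7.35 CPM against 34.6, 42.7, 32.2 and 42.5 CPM. Of 12 listed GABA-A receptor subunit genes, Gabra5 and Gabrg3 were called lower, Gabra5 at 45.7, 30.4, 47.4 and 28.7 CPM against 117, 72.5, 112 and 69.5 CPM. Of 8 AMPA and NMDA receptor genes, 1 was called, Gria3, which was lower at 114 to 198 CPM against 242 to 330 CPM. Of 7 acetylcholine receptor genes, Chrm3 and Chrna4 were lower and 0 were higher, against 2.69% and 2.03% of all genes.

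Among potassium channel genes, Kcnh5, Kcnip2 and Kcnab3 were called higher, and 0 of the 22 genes tested were called lower. Of 15 sodium and calcium channel genes, Scn1a, Cacna1i and Cacna2d3 were higher and Cacna1h was lower, against 2.03% and 2.69% of all genes. Cacna1i and Cacna1h both encode T-type calcium channels. Cacna1i was at 93.3 to 245 CPM against 51.8 to 130 CPM and Cacna1h at 3.80 to 7.92 CPM against 11.5 to 15.8 CPM.

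Adhesion and guidance genes were called in both directions, and of all genes 2.03% were called higher and 2.69% lower. Of 14 cadherins and protocadherins, Cdh6, Cdh12 and Pcdh20 were higher and Cdh9, Cdh13 and Cdh18 lower. Cdh9 was at 9.78, 5.49, 8.45 and 5.66 CPM against 52.1, 34.2, 40.1 and 28.8 CPM. Of 22 guidance genes, Sema7a, Plxnd1 and Unc5d were higher, while Sema3e, Nrp1, Nrp2, Efnb3, Robo1 and Slit1 were lower. Sema3e is the ligand of the receptor encoded by Plxnd1. Plxnd1 was at 122, 184, 128 and 176 CPM against 45.1, 96.1, 45.8 and 87.7 CPM, and Sema3e at 14.3, 11.2, 14.1 and 12.1 CPM against 59.1, 30.0, 37.1 and 34.1 CPM. Of 14 tested Wnt pathway genes, Wnt9a was higher and Rspo2 and Dkk3 were lower. Rspo2, a relative of the rule marker Rspo1, was at 9.78, 11.6, 8.37 and 4.15 CPM against 46.0, 38.1, 35.2 and 23.4 CPM.

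Oligodendrocyte genes differed from the upper and the deep classes in opposite directions. The 8 oligodendrocyte genes were all called higher than in the layer 2/3 class and all called lower than in the layer 6 class, and against other cortical spots 1 of 8, Mobp, was called lower. Of all genes, 2.25% were called higher than in the layer 2/3 class, 4.90% lower than in the layer 6 class and 2.69% lower than in other cortical spots. The sum of the 8 oligodendrocyte genes was 3885 to 5180 CPM in the cortical members and 6721 to 9263 CPM in other cortical spots. Mbp, the myelin basic protein gene, ranked first in spread among the cortical members by its median over the sets, with a Fano factor (variance over mean at 10000 counts per spot) of 3.46, 5.43, 50.5 and 59.4 in sets 1 to 4, where the median gene was near 1, from 1.02 to 1.05. In sets 1 and 2 Ptgds, a gene of meninges and oligodendrocytes, was more unequal, at 24.3 and 97.7. Ptgds, Gfap, Mobp, Sst, Camk2n1, Npy, Cd74 and Cst3 were among those that followed, which are mainly genes of myelin, meninges, astrocytes and interneurons. Against other cortical spots, astrocyte genes had 1 of 7 called lower, Gfap, and 0 of 7 microglial genes were called. In that comparison 2.03% of all genes were higher and 2.69% lower. Against the layer 2/3 class, 0 of 7 astrocyte, 0 of 3 oligodendrocyte precursor and 0 of 7 microglial genes were called, where 2.25% of all genes were higher and 2.73% lower. The part of myelin in the differences from the layer classes was not tested.

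The gene targeted in the study did not stand out in the cortical members when set against other cortical spots. Celsr3 was at 29.3, 47.8, 22.4 and 53.4 CPM in the cortical members and 33.4, 47.0, 25.7 and 47.1 CPM in other cortical spots, ratios of 0.879 (0.770 to 1.00), 1.02 (0.882 to 1.17), 0.871 (0.764 to 0.989) and 1.13 (0.992 to 1.29). Celsr2 was at 192 to 250 CPM against 195 to 243 CPM. Celsr1 was at 1.06 to 3.20 CPM, below the level filter. Neither Celsr2 nor Celsr3 was called.

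Between the sets, the cortical members differed by different amounts. Of 9756 genes, 35 (0.359%) were at least 2-fold apart on the scale of log2(CPM + 1) for set 1 against 3, and 30 (0.308%) for set 2 against 4. Set 1 against 2 gave 679 (6.96%), 1 against 4 gave 857 (8.78%), 2 against 3 gave 477 (4.89%) and 3 against 4 gave 539 (5.52%). Other cortical spots gave 25 and 27 genes for the first pairs and 421 to 745 for the others, so the differences between sets were of a similar extent in and outside the members. Genes with the widest range, such as Gm10260, Amd1, H2-D1 and Me1, were at or near 0 in 1 set in the members and in other cortical spots alike: H2-D1 was at 0.754 CPM in the cortical members and 0.183 CPM in other cortical spots of set 4, and at 25.8 to 47.2 CPM and 16.6 to 33.7 CPM in the other sets.

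Immediate-early genes, which neurons transcribe within minutes of activity, spread widely over the sets in the cortical members. Of 12 such genes that passed the level filter here, 10 had a range of at least 1 on the log2(CPM + 1) scale, against 11.8% of all genes, and their median range was 1.49 against 0.51. Fos was at 15.1, 74.2, 14.9 and 76.4 CPM, Arc at 158, 572, 206 and 1057 CPM, and Egr2 at 2.20, 11.8, 2.71 and 18.9 CPM, with the high values in sets 2 and 4. Egr1 varied least of these, at 387, 596, 476 and 499 CPM. In other cortical spots the median range of the list was 1.85, with Fos at 18.9, 79.5, 11.6 and 104 CPM. Nr4a3 was the 1 gene of the list called between members and other cortical spots, lower at 13.1, 34.9, 13.4 and 23.9 CPM against 40.4, 66.8, 33.6 and 67.9 CPM. Sets 2 and 4 also had the lower median counts per cortical member, 47972 and 33579 against 70184.5 and 68261.5 in sets 1 and 3, and the part of depth or handling was not tested.

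**Figure D5:**
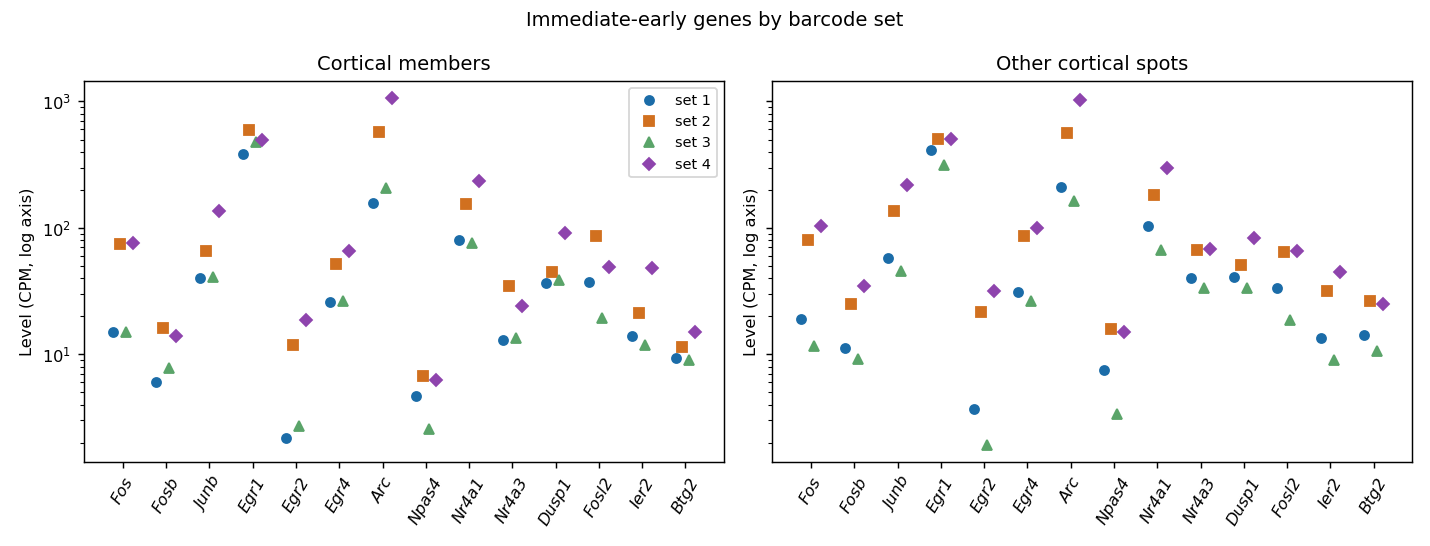
Levels (vertical log axis, CPM) of 14 immediate-early genes (horizontal axis) in cortical members (left) and other cortical spots (right), 1 point per barcode set. For Fos and Arc the points of sets 2 and 4 lie above those of sets 1 and 3 in both panels, while the 4 points of Egr1 lie close together.

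The calls in the cortical members depended on the depth used to choose the spots. When each spot was thinned to 5000 counts before scoring, leaving out 70 shallower spots of which 67 were in set 4, 106 genes were called higher and 122 lower, of which 105 and 119 were also called at full depth. Set against all spots outside the members, of any tissue, the cortical members had 397 genes higher (3.96% of 10035) and 685 lower (6.83%).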

How the data were processed

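Visium CytAssist counts (FFPE, version 2, per the labels' protocols) were analysed. The authors deposited 1 table of raw counts, 19465 genes by 12602 spots. Space Ranger and Seurat are named in the submitters' processing notes without versions, and the genome build, probe set and spot filter are not given in the sources used here. No set was tied to a sample, so the samples' labels formed no comparison, and replicates could not be used.

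Spots under 500 counts (1 spot) were left out. Members, the cortical score, pools, CPM and ratios were computed for each set as the report states, with exact Clopper-Pearson and conditional binomial intervals (Python 3.11.15, numpy 2.4.6, pandas 2.3.3, scipy 1.17.1, matplotlib 3.10.9). Scaling alternatives used TMM and RLE from edgeR 4.0.16 (R 4.3.3), without its tests. Genes were named by list, by the 12 highest and 12 lowest ratios (6 and 6 against each layer class), the 12 widest ranges and the 10 highest Fano factors. Other named genes were chosen after their values were seen. The rule markers, score genes, Xist and Tsix stayed out of calls. Etv1, Arf5 and Asic1 were not analysed here. A few score, list and ranked genes are not reported here. The members and lists were chosen with earlier results of these data known. The steps were tested on simulated data: of 200 genes changed 2-fold among 9823 between cortical members and other cortical spots, 100% were recovered and 0 unchanged genes were called. These simulated pools held counting error only, without the spread among spots. The changed genes were drawn at 2 times the level filter or higher. Genes near the filter and changes near 1.5-fold were therefore not tested, and the recovery says nothing about them.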

Additional observations from a re-analysis of the deposited data

How the results depend on the processing

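No paired analysis was possible because no barcode set could be matched to a replicate of a genotype. Members and other spots were compared within each set, without a test. The description of cortical members, the layer classes limited to cortical spots, the matched cortical score of 0.5, 3 marker lists and the genes higher than each layer class were chosen after seeing the data. The share of members in sets 1 to 4 became 8.87%, 7.76%, 9.84% and 14.6% at a mean z-score of at least 0.75, 3.40%, 2.81%, 3.95% and 5.40% at 1.5, and 5.27%, 4.42%, 5.23% and 7.38% when spots were thinned to 5000 counts. It was 4.26%, 3.56%, 5.23% and 4.89% for cortical members alone. With z-scores within each set it was 7.51%, 8.01% and 7.62% in sets 2 to 4, so that set 4 no longer stood apart, and with at least 2 markers counted it was 8.14% in set 4. Leaving out 1 set at a time put the share of set 1 between 5.79% and 6.91%, of set 2 between 5.41% and 7.09%, of set 3 between 6.62% and 8.01%, and of set 4 between 9.41% and 9.50%. The share of cortical members became 5.11%, 4.56%, 6.79% and 6.01% at 0.75, 2.78%, 2.17%, 3.16% and 3.28% at 1.5, 2.85%, 2.50%, 3.34% and 3.66% after thinning, and 4.56% in set 2 with z-scores within sets.

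Over all members, thinning gave 103 lower genes, no filter 1098 higher and 277 lower, a 2-fold limit 119 and 60, and cortical members alone 264 lower. In cortical members thinning gave 106 higher and 122 lower, all other spots as comparison 397 and 685 with 134 list genes called, no filter 337 and 603, and a 2-fold limit 58 and 120. With 1 set left out, all members had 247 to 373 higher and 169 to 199 lower genes, and cortical members 208 to 225 and 273 to 289. Between sets in all members, no filter gave 1500 genes (sets 1 and 2), 390 (1 and 3), 1603 (1 and 4), 929 (2 and 3), 333 (2 and 4) and 1421 (3 and 4), and a mean z-score of 1.5 gave 190 for sets 2 and 4. In cortical members no filter gave 1223, 112, 1557, 881, 272 and 1044 in the same order. More genes of low counts were compared without a filter, and the cause of the other moves was not tested. The left-out ratios of chosen spots of any cortical score, over cortical spots not so chosen, also moved. With the other 2 markers at a mean z-score of at least 1.5, they became 3.37 and 3.29 for Rorb in sets 2 and 3 and 7.39 and 4.79 for Scnn1a in sets 1 and 4.

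In cortical members alone, the median log2 ratio turned to -0.10 for Oxt, -0.62 for Gal, -0.18 for Unc5cl and -0.99 for Ak7. For the thalamic list, the median over genes of their median ratio over sets was 1.44 for the 1 gene tested against other cortical spots and -2.21 for the 5 genes tested against all other spots, so the genes are not the same. Of the other values of named genes in cortical members, 361 stayed within counting error and 47 moved without turning. Over all members, 359 such values stayed and 45 moved without turning. The list medians, judged by their spread over the sets, moved more often. In cortical members 63 stayed, 38 moved and 1 turned, and over all members 51 stayed and 51 moved. Depth limits genes with few counts, as the intervals show.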
